A study of Mus musculus with 2 samples.

Results

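Slc17a6, Slc17a7, Slc17a8, Gad1, Gad2 and Slc32a1 decide whether a neuron can load glutamate or GABA into its synaptic vesicles. The 6 genes were chosen by name, from the 28692 genes listed in both count tables of a single-cell RNA-seq series of the mouse habenula. They are followed here cell by cell through medial habenula, lateral habenula, thalamus-like and other neurons. The series holds 1 library from foot shock mice and 1 from control mice. Punches of the habenula of 4 mice were pooled for each library, and the mice were C57BL/6 males of 50 to 55 days. The foot shock mice were handled for 5 min per day and placed in the shock chamber for 10 min per day over 7 days. They then received 30 shocks of 0.3 mA, each lasting 1 s with a mean gap of 116 s, in a session of 60 min, and tissue was taken straight after it. The control mice were handled for 5 min per day over 7 days and were taken from the home cage, with no time in the chamber, so shock and exposure to the chamber cannot be told apart. In both groups the slices were cut and digested in a solution that blocked firing, transcription and translation. Because each group is 1 pooled library, no test between the groups was possible. The intervals below are 95% intervals that cover counting error only.

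A neuron's transmitter depends on which carrier sits in the vesicle membrane. VGLUT2, VGLUT1 and VGLUT3, encoded by Slc17a6, Slc17a7 and Slc17a8, carry glutamate into vesicles, while GAD67 and GAD65, encoded by Gad1 and Gad2, make GABA from glutamate and VGAT, encoded by Slc32a1, loads it. The medial habenula is known for cholinergic and Substance P neurons that co-release glutamate in the interpeduncular nucleus, and the lateral habenula for VGLUT2 neurons that drive midbrain and rostromedial tegmental targets. A cell that makes Gad2 but truly lacks Slc32a1 would hold an enzyme of GABA synthesis without the usual vesicular carrier.

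On GRCm38, Slc17a6 lies on the plus strand at chr7:51622006-51671119 and Slc17a7 on the plus strand at chr7:45163949-45176142. Slc17a8 lies on the minus strand at chr10:89574020-89621253. Gad1 (chr2:70553072-70602014), Gad2 (chr2:22622205-22693874) and Slc32a1 (chr2:158610767-158615748) lie on the plus strand of chromosome 2. The promoters of Slc17a6, Slc17a7 and Gad2 are shown, because the results turn on the neurons in which these 3 genes were found. Each run holds 250 bases before and 50 bases after a transcription start in RefSeq on GRCm38.p6, read 5′ to 3′ on the gene's strand, and all 6 genes had an entry. Capitals mark TAATTA, a homeodomain core that is its own reverse complement, and the GC box GGGCGG or, on the other strand, CCGCCC.
Slc17a6, first start (chr7:51621580-51621879): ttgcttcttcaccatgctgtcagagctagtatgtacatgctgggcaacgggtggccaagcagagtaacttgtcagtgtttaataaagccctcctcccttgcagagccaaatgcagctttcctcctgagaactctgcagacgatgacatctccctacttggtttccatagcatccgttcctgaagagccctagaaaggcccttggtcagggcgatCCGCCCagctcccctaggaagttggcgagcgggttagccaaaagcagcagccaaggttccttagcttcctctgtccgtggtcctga
Slc17a6, second start (chr7:51624387-51624686): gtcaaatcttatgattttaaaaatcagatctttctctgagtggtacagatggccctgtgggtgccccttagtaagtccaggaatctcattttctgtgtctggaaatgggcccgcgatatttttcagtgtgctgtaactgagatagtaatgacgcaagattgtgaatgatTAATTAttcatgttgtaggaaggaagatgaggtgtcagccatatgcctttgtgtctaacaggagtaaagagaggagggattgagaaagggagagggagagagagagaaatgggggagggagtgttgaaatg
Slc17a7 (chr7:45163671-45163970): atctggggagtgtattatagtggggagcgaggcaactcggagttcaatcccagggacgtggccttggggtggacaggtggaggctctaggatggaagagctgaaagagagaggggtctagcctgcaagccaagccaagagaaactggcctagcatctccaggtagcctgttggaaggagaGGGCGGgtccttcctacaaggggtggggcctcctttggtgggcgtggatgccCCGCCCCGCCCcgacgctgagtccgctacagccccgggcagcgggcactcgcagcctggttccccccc
Gad2 (chr2:22622077-22622376): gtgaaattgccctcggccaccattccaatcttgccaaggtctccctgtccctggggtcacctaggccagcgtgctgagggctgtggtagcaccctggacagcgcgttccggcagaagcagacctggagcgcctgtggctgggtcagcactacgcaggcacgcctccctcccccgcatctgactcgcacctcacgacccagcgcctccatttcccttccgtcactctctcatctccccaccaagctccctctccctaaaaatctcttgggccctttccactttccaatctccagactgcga
The first Slc17a6 start had 1 GC box and 53.7% G and C, and the second had 1 TAATTA and 43.0% G and C. The Slc17a7 window held 3 GC boxes, of which 2 overlap, with 63.7% G and C and 13 CpG. The Gad2 window held neither motif, with 61.3% G and C and 14 CpG. Among the 32851 mouse promoter windows in the same table, 5.29% held TAATTA and 35.7% a GC box, the median content of G and C was 52.7% and the median number of CpG was 7. These matches describe the letters only.

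The foot shock library held 22189951 UMIs and the control library 23095501 (a UMI is 1 tagged transcript copy). After filters and removal of doublets, 4771 foot shock and 4880 control cells were kept, and 32 kept barcodes occurred in both libraries. Neurons numbered 2742 in the foot shock library and 2597 in the control library. MHb-like neurons (medial habenula) numbered 1616 and 1207, LHb-like neurons (lateral habenula) 1036 and 1171, thalamus-like neurons 56 and 131, and other neurons 34 and 88, foot shock before control. The foot shock library stood apart in holding 504 epithelial-like cells, against 0 in the control library. The 6 genes were kept out of the clustering and of the marker lists, so they did not themselves define the classes. Their levels still depend on where the edge of a class is drawn. Pou4f1, a transcription factor of habenular neurons, stood at 583 CPM (UMIs of the gene per 1000000 UMIs of the class) in foot shock MHb-like cells and 718 CPM in control MHb-like cells. In LHb-like cells it stood at 377 CPM in the foot shock library and 412 CPM in the control library, while thalamus-like cells held 11.5 and 9.06 CPM. The LHb-like class was uneven: its subclusters LHb 2 and LHb 13 held only 16 to 40 CPM of Pou4f1, near the 26.2 CPM of foot shock and 18.6 CPM of control oligodendrocyte-like cells. Free RNA, read from barcodes of 10 to 100 UMIs, held more Pou4f1 than these cells, at 266 CPM in the foot shock library and 379 CPM in the control library. The levels of the 3 GABA genes over the class, and the foot shock over control ratios of Gad1 and Gad2, are therefore also given without LHb 2 and LHb 13.

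Slc17a6, the VGLUT2 gene, was found in every neuron class and was highest in thalamus-like neurons, then in the lateral and then in the medial habenula. Thalamus-like neurons held 1327 CPM (1191 to 1475) in the foot shock library and 1125 CPM (1051 to 1202) in the control library. LHb-like neurons held 530 CPM (507 to 554) in the foot shock library and 490 CPM (471 to 509) in the control library. MHb-like neurons held 252 CPM (239 to 266) in the foot shock library and 226 CPM (214 to 240) in the control library. The MHb-like level was 0.476 times the LHb-like level in the foot shock library (0.445 to 0.510) and 0.462 times in the control library (0.431 to 0.496). Other neurons held 540 CPM in the foot shock library, 1.02 times the LHb-like level (0.806 to 1.27), so these 2 neighbours in the order did not differ beyond counting error there. In the control library they held 648 CPM, 1.32 times the LHb-like level (1.16 to 1.504).

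The share of cells with at least 1 Slc17a6 UMI followed the same order. It was 96.4% in foot shock and 95.4% in control thalamus-like cells, 75.2% and 78.7% in LHb-like cells, and 53.3% and 57.0% in MHb-like cells. Cells differ in depth, so each was also thinned to 1000 UMIs. After thinning the shares were 74.5% and 69.1% in thalamus-like cells, 40.3% and 39.6% in LHb-like cells, and 21.7% and 20.3% in MHb-like cells, foot shock first. Oligodendrocyte-like cells, which should lack the gene, gave thinned shares of 2.24% in the foot shock library and 1.86% in the control library, and all 3 neuron classes stood well above these. The median depth of oligodendrocyte-like cells was 1845.5 UMIs in the foot shock library and 2067 in the control library, against 3469.5 and 4228 in MHb-like cells and 3581.5 and 4323 in LHb-like cells. Some other non-neuronal classes held more Slc17a6. Oligodendrocyte precursor-like cells gave thinned shares of 8.17% in the foot shock library and 3.36% in the control library, below those of MHb-like cells. By level they held 197 CPM (138 to 275) and 57.8 CPM (34.8 to 90.2), and the foot shock interval holds the MHb-like 252 CPM.

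Slc17a7, the VGLUT1 gene, showed the opposite split: it was high in the medial and near background in the lateral habenula as a whole. MHb-like neurons held 558 CPM (538 to 577) in the foot shock library and 544 CPM (524 to 565) in the control library. LHb-like neurons held 15.5 CPM (11.8 to 20.0) in the foot shock library and 10.1 CPM (7.56 to 13.3) in the control library. The MHb-like level was 36.0 times the LHb-like level in the foot shock library (27.8 to 47.3) and 53.7 times in the control library (40.9 to 72.1). With doublets kept it was 21.9 times in the foot shock library and 24.2 times in the control library, and with a habenula name requiring 2 Pou4f1 UMIs per 10000 cell UMIs in place of 1 it was 27.0 and 35.5 times. Free RNA held 59.1 CPM in the foot shock library and 51.9 CPM in the control library, above both LHb-like values. Thinned shares of cells with Slc17a7 were 37.4% and 36.6% in MHb-like cells and 1.21% and 1.04% in LHb-like cells, foot shock first, beside 1.02% and 0.784% in oligodendrocyte-like cells. The LHb-like share over the whole class thus lay near background. Its UMIs were unevenly spread: LHb 3 gave 20 of 59 in the foot shock library and 19 of 52 in the control library. In LHb 3 the level was 37.0 CPM in 13 of 116 foot shock cells and 24.8 CPM in 10 of 152 control cells, below free RNA. LHb 8 gave 9 and 6 UMIs, while LHb 9 and LHb 10 gave 0 in both libraries. Whether the UMIs of LHb 3 and LHb 8 are expression or background was not tested. Thalamus-like neurons lay between, with 69.0 CPM (40.9 to 109) in 10 of 56 foot shock cells and 38.8 CPM (26.2 to 55.4) in 12 of 131 control cells, and in both libraries the interval holds the free RNA level. Their thinned shares were 7.20% (2.01 to 17.4) in the foot shock library and 3.67% (1.17 to 8.48) in the control library, above the oligodendrocyte-like shares. Non-neuronal classes varied, and microglia-like cells gave 12.1% in the foot shock library and 1.95% in the control library.

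Slc17a8, the VGLUT3 gene, was rare everywhere. LHb-like neurons held 11.0 CPM (7.96 to 14.9) in 33 foot shock cells and 7.20 CPM (5.07 to 9.93) in 33 control cells. MHb-like neurons held 3.04 CPM in the foot shock library and 2.59 CPM in the control library, 0.275 times (0.147 to 0.493) and 0.360 times (0.175 to 0.692) the LHb-like level. No oligodendrocyte-like cell held a UMI in either library, and free RNA held 2.59 CPM in the foot shock library and 0.277 CPM in the control library. Both LHb-like values thus lay above free RNA, and the foot shock MHb-like value lay close to it.

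Among neurons, the 3 GABA genes were nearly absent from the medial habenula, low in thalamus-like cells and found mainly in LHb-like cells. Gad2 held 51.8 CPM (44.8 to 59.5) in foot shock and 59.6 CPM (53.1 to 66.6) in control LHb-like neurons, against 0.536 CPM (3 UMIs) in foot shock and 1.79 CPM (9 UMIs) in control MHb-like neurons. Gad1 held 7.89 CPM (5.32 to 11.3) in foot shock and 7.40 CPM (5.24 to 10.2) in control LHb-like neurons, against 1 UMI in MHb-like neurons of each library. Outside neurons, oligodendrocyte precursor-like cells held Gad1 at 16.9 CPM (3.49 to 49.5) in 3 foot shock cells and 21.3 CPM (8.56 to 43.9) in 7 control cells. Slc32a1 held 4.73 CPM (2.80 to 7.48) in foot shock and 6.43 CPM (4.42 to 9.02) in control LHb-like neurons. It was at 0 in MHb-like neurons, which allows up to 0.536 CPM in the foot shock library and 0.598 CPM in the control library. Gad2 was found in 72 of 1036 foot shock LHb-like cells (6.95%) and 105 of 1171 control LHb-like cells (8.97%), while Gad1 was found in 8 and 12 cells and Slc32a1 in 8 and 11 cells. After thinning, Gad2 was found in 3.57% of foot shock and 3.79% of control LHb-like cells, beside 0.132% and 0.0921% of oligodendrocyte-like cells. Gad2 in other neurons stood at 26.7 CPM in 3 foot shock cells and 45.5 CPM in 5 control cells, and the intervals of its ratio to LHb-like cells held 1. The antisense neighbours Gad1os and Gm14205 were at 0 UMIs in MHb-like and LHb-like cells of both libraries.

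Every member measured lay past 1.5-fold between MHb-like and LHb-like neurons in both libraries. Of the 5 members with 20 or more UMIs in the foot shock library, 1 was over 1.5-fold higher and 4 over 1.5-fold lower in MHb-like cells, where 34.2% of all 11966 measured genes passed that fold in either direction. In the control library 1 of 6 was higher and 5 were lower, where 35.9% of 12178 genes passed. The median log2 ratio over all genes was -0.13 in the foot shock library and -0.16 in the control library.

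**Figure D1:**
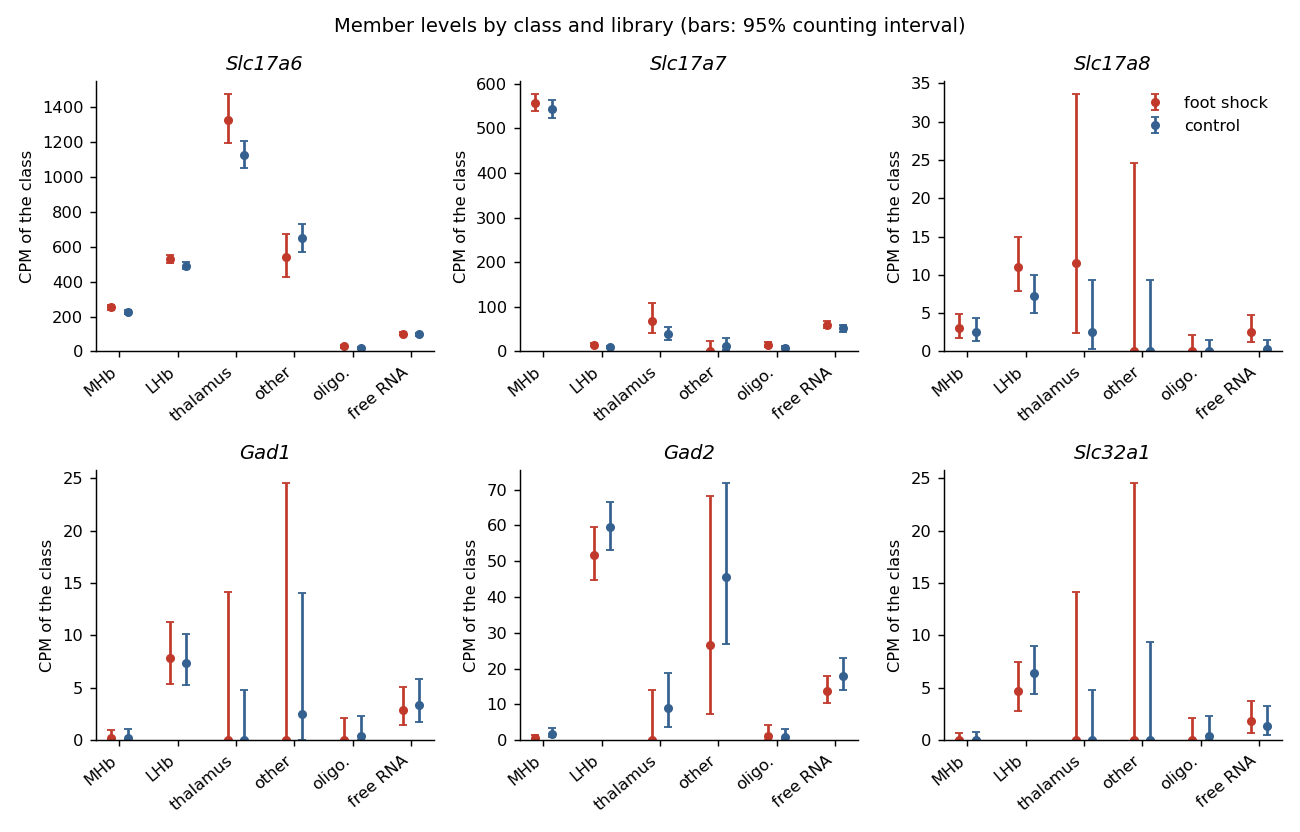
Level of each of the 6 genes (CPM of the class sum, linear axes that differ between panels) by neuron class, in oligodendrocyte-like cells and in free RNA, with 1 point per library and exact 95% counting intervals. Slc17a7 stands at 558 CPM in foot shock and 544 CPM in control MHb-like neurons, Slc17a6 is highest in thalamus-like neurons, and Gad2 is highest in LHb-like neurons.

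Many MHb-like neurons held both vesicular glutamate genes. Without thinning, 665 of 1616 foot shock cells held Slc17a6 and Slc17a7 together, 197 held Slc17a6 without Slc17a7, 438 held Slc17a7 without Slc17a6 and 316 held neither. In the control library these counts were 530, 158, 334 and 185 of 1207 cells. At 1000 UMIs per cell the share with both was 9.22% (7.85 to 10.7) in the foot shock library and 8.46% (6.95 to 10.2) in the control library, beside 0.0433% and 0.0134% of oligodendrocyte-like cells. Slc17a7 was found in 42.5% of thinned foot shock cells with Slc17a6 and 35.9% of those without it, and in 41.6% and 35.3% in the control library. Co-detection depended on depth: without thinning it was 41.2% in the foot shock library and 43.9% in the control library.

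Within the medial habenula the 2 genes were high in the same subclusters. The subclusters were formed without the 6 genes and are numbered by size. A subcluster is named by its leading genes, those with the highest ratio of CPM + 10 to the rest of its own class among genes that 25% or more of its cells held, and a whole cluster by the same ratio to all other neurons. The small subcluster MHb 8, led by Synpr, Slc18a3 and Slc5a7 (Slc18a3 loads acetylcholine into vesicles and Slc5a7 takes up choline), held the most Slc17a7, at 1797 CPM in 22 foot shock cells and 1727 CPM in 28 control cells. Its Slc17a6 stood at 503 CPM in the foot shock library and 432 CPM in the control library, also the highest of the 8 subclusters with at least 20 cells. MHb 8 had a low Pou4f1 level for this class, at 252 CPM in the foot shock library and 173 CPM in the control library.

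MHb 2, led by Fgf1, Lsp1 and Syndig1l, followed with 936 CPM of Slc17a7 in 333 foot shock cells and 1002 CPM in 221 control cells. At the other end, MHb 4, led by Cck, 6330403A02Rik and Adcyap1, held 196 CPM of Slc17a7 in 225 foot shock cells and 216 CPM in 158 control cells. MHb 1, led by Spon1, Kcnmb4os2 and Rprm, held 258 CPM in the foot shock library and 260 CPM in the control library. Slc17a6 varied less, between 169 and 503 CPM in the foot shock library and between 150 and 432 CPM in the control library. Over the 8 subclusters the 2 genes' log2(CPM + 10) had a Pearson r of 0.88 in the foot shock library and 0.87 in the control library (Spearman rho 0.90 and 0.83), where the points share a library. Over the 14 LHb-like subclusters r was 0.35 in the foot shock library and -0.42 in the control library.

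The balance between the 2 carriers also differed between subclusters. MHb 4 held 0.895 UMIs of Slc17a7 per UMI of Slc17a6 in the foot shock library and 0.929 in the control library. MHb 2 held 3.18 and 3.57, and MHb 8 held 3.57 and 4.00, foot shock first. Capture can differ between the 2 transcripts, so these ratios are compared between subclusters only. By whole cluster, both genes were found after thinning in 14.3% of foot shock and 14.9% of control cells of the cluster led by Synpr, Lsp1 and Rapgef4, and in 21.9% and 19.9% of the one led by Pdzd8, Pim1 and Slc5a7. In the cluster led by Cck, Tac1 (which encodes Substance P) and Adcyap1 the shares were 3.79% and 5.30%.

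**Figure D2:**
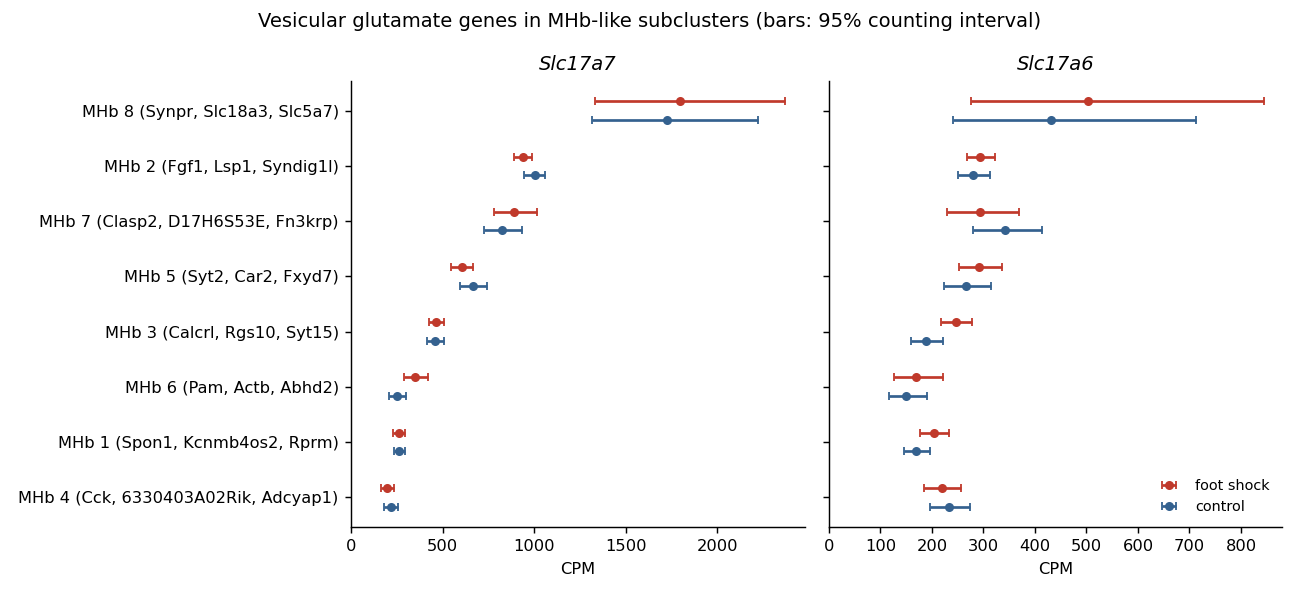
Slc17a7 and Slc17a6 levels (CPM) in the MHb-like subclusters, with 1 point per library and exact 95% counting intervals. Slc17a7 runs from 196 CPM in foot shock MHb 4 to 1797 CPM in foot shock MHb 8, and both libraries give a similar order.

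Among LHb-like neurons Gad2 was concentrated in a few subclusters that held less Pou4f1 than the class. LHb 1, led by Megf11, Cbln1 and Necab1, held 281 CPM of Gad2 (233 to 337) in the foot shock library, in 38 of 124 cells, and 135 CPM (114 to 159) in the control library, in 52 of 279 cells. LHb 10, led by Clasp2, Pam and Supt16, held 157 CPM in the foot shock library and 132 CPM in the control library. LHb 2, led by Lmo3, Sema3c and Ntng1, held 46.7 CPM in 7 foot shock cells and 116 CPM in 18 control cells. LHb 5, led by Ddc, held 62.5 and 53.1 CPM, LHb 7 held 37.0 and 64.6 CPM, and LHb 3, 4, 6, 8, 9, 11, 12 and 13 held between 0 and 23.6 CPM, foot shock first. Pou4f1 stood at 102 CPM in foot shock and 131 CPM in control LHb 1, and at 17 and 16 CPM in LHb 2, whereas LHb 3 held 679 and 827 CPM of Pou4f1.

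The GABA genes of the LHb-like class therefore depended on where its edge was drawn. With a habenula name requiring 2 Pou4f1 UMIs per 10000 in place of 1, a pair of clusters that made up most of the class left it. They held 910 and 501 cells over both libraries, at 1.51 and 1.99 Pou4f1 UMIs per 10000, and the clusters that stayed held 732 and 64 cells. The Gad2 level of the rest was 4.89 CPM in the foot shock library and 2.55 CPM in the control library, with Gad1 and Slc32a1 at 0 in both. With only LHb 2 and LHb 13 moved out, which left 880 foot shock and 978 control cells, Gad2 stood at 54.1 CPM in the foot shock library and 49.7 CPM in the control library. Gad1 then stood at 5.26 CPM in the foot shock library and 0.707 CPM in the control library, and Slc32a1 at 4.64 and 0.942 CPM. This last setting was added after the data were seen.

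Slc17a8 had its own distribution inside the lateral habenula. LHb 12, led by Syt15, Trhde and Sema3d, held 52.5 CPM in 8 of 41 foot shock cells and 66.7 CPM in 5 of 17 control cells. LHb 6, led by Cxcl13, Ret and Sod3, held 43.1 CPM in 9 foot shock cells and 29.4 CPM in 7 control cells. LHb 3, led by Sv2c, Chrm2 and Cpne4, held 24.0 CPM in 10 foot shock cells and 10.5 CPM in 8 control cells. These 3 subclusters held 464 CPM of Pou4f1 or more in both libraries, so Slc17a8 and Gad2 were high in different subclusters. In the medial habenula the Cck-led MHb 4 held the most Slc17a8, at 11.4 CPM in the foot shock library and 9.97 CPM in the control library. Slc17a6 was present in all of the LHb-like subclusters shown, between 312 and 708 CPM in the foot shock library and between 245 and 575 CPM in the control library.

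**Figure D3:**
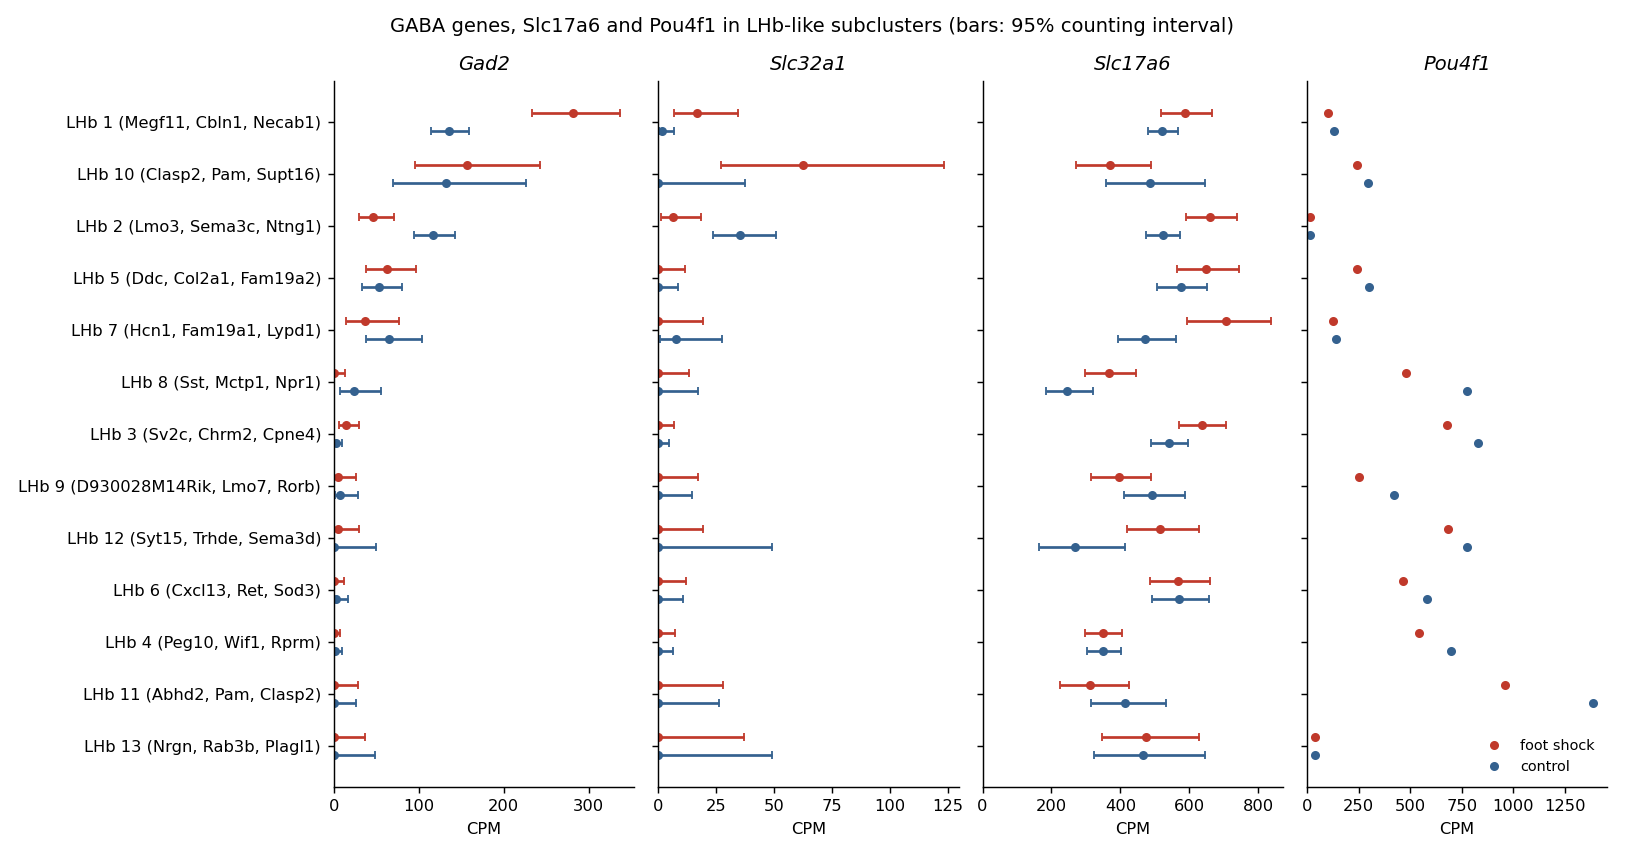
Gad2, Slc32a1, Slc17a6 and Pou4f1 levels (CPM) in the LHb-like subclusters with at least 10 cells in each library, named with their leading genes, with exact 95% counting intervals on the 3 transmitter genes. Gad2 peaks in LHb 1 at 281 CPM in the foot shock library and 135 CPM in the control library, where Pou4f1 is 102 and 131 CPM.

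By the genes detected, the LHb-like cells with a GABA gene were mostly of 2 kinds. Most held Gad2 alone of the 3 genes: 62 foot shock cells (5.98%) and 92 control cells (7.86%), with 75.1% and 69.9% of all Gad2 UMIs of the class. Of these, 83.9% (72.3 to 92.0) in the foot shock library and 90.2% (82.2 to 95.4) in the control library also held a vesicular glutamate gene, and their Slc17a6 stood at 673 CPM (577 to 780) and 509 CPM (450 to 573). Cells with none of the 3 GABA genes held 525 CPM of Slc17a6 in the foot shock library and 494 CPM in the control library, with a vesicular glutamate gene in 76.1% and 79.0% of cells. These shares were not thinned, and the cells with Gad2 alone were deeper. Their median was 4340 UMIs in the foot shock and 5677 in the control library, against 3556 and 4127.5 in cells with none. The part of depth in the higher shares was not tested. Gad2 was shallow in the cells with Gad2 alone: 32 of 62 foot shock and 48 of 92 control cells held exactly 1 UMI, and the highest held 11 and 13. Over the class Slc32a1 gave 18 UMIs against 197 of Gad2 in the foot shock library and 33 against 306 in the control library. At this depth, a cell that lacks Slc32a1 cannot be told from one in which it was missed. A few cells were of neither kind: 2 foot shock and 2 control cells held Gad1 and Gad2 without Slc32a1, and 1 foot shock cell held Gad1 alone.

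The other kind held Slc32a1. All 8 foot shock and all 11 control neurons with an Slc32a1 UMI also held Gad1 or Gad2, which is 0.292% of 2742 foot shock and 0.424% of 2597 control neurons. Their median depth was 2423 UMIs in the foot shock library and 5970 in the control library. Their median Gad2 count was 4.5 UMIs in the foot shock library and 10 UMIs in the control library, and they held 26 and 36 Gad1 UMIs. Slc17a6 was found in 2 of the 8 foot shock cells (25.0%, 3.19 to 65.1) and 2 of the 11 control cells (18.2%, 2.28 to 51.8), at 97.9 CPM (20.2 to 286) and 48.5 CPM (10.0 to 142). Free RNA alone held 102 CPM of Slc17a6 in the foot shock library and 97.3 CPM in the control library. Oligodendrocyte-like cells held less, at 29.1 CPM (21.6 to 38.3) and 19.0 CPM (13.9 to 25.4). The free RNA and the oligodendrocyte-like levels both lie inside the intervals of the Slc32a1 cells, so these few cells do not separate from either.

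Markers from a list of 12 for GABAergic neurons, which holds none of the 6 genes, were found more often in cells with Slc32a1 than in cells with Gad2 alone. At least 1 marker UMI was found in 7 of 8 foot shock and 7 of 11 control cells with Slc32a1. In cells with Gad2 alone it was found in 0 of 62 foot shock cells (0 to 5.78%) and in 2 of 92 control cells. In cells with none of the 3 genes it was found in 16 of 963 foot shock and 29 of 1066 control cells. The UMIs of the Slc32a1 cells were unevenly spread: 1 foot shock cell held 47 of 58 and 1 control cell held 38 of 89. Pvalb gave 36 of 58 in 1 foot shock cell and 64 of 89 in 2 control cells. Gata3, a factor of midbrain GABAergic neurons, was found in 1 foot shock and 5 control cells. Dlx2 and Lhx6 were at 0 in both libraries, and Dlx1, Dlx5 and Dlx6os1 each gave at most 1 UMI per library. Over whole classes the list gave 22.9 CPM in foot shock and 24.7 CPM in control LHb-like cells, with 2 and 4 of the 12 markers at 0. In MHb-like cells it gave 24.5 and 23.9 CPM, nearly all of it Otx2 (23.7 and 22.9 CPM), with 10 and 8 markers at 0.

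Pou4f1 was lower in the cells with Slc32a1 than in those with Gad2 alone, on few UMIs. The Slc32a1 cells held 1 Pou4f1 UMI in the foot shock library and 3 in the control library, or 32.6 CPM (0.827 to 182) and 48.5 CPM (10.0 to 142). Cells with Gad2 alone held 225 CPM (172 to 291) in the foot shock library, with a UMI in 22 of 62 cells, and 208 CPM (171 to 251) in the control library, with a UMI in 49 of 92 cells. Cells with none of the 3 genes held 391 and 441 CPM, foot shock first. The free RNA level of Pou4f1 lay above that of the cells with Gad2 alone in the control library and inside their interval in the foot shock library. Free RNA is not a floor for a cell, however. Oligodendrocyte-like cells held 26.2 CPM (19.1 to 35.0) in the foot shock library and 18.6 CPM (13.5 to 25.0) in the control library, below the cells with Gad2 alone. The Slc32a1 cells lay in LHb 10 (4 cells), LHb 1 (2) and LHb 2 (2) in the foot shock library and mostly in LHb 2 (9 of 11) in the control library. LHb 2 as a whole was low in Pou4f1, as given above. The low Pou4f1 of the control Slc32a1 cells therefore cannot be told apart from that of their subcluster.

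**Figure D4:**
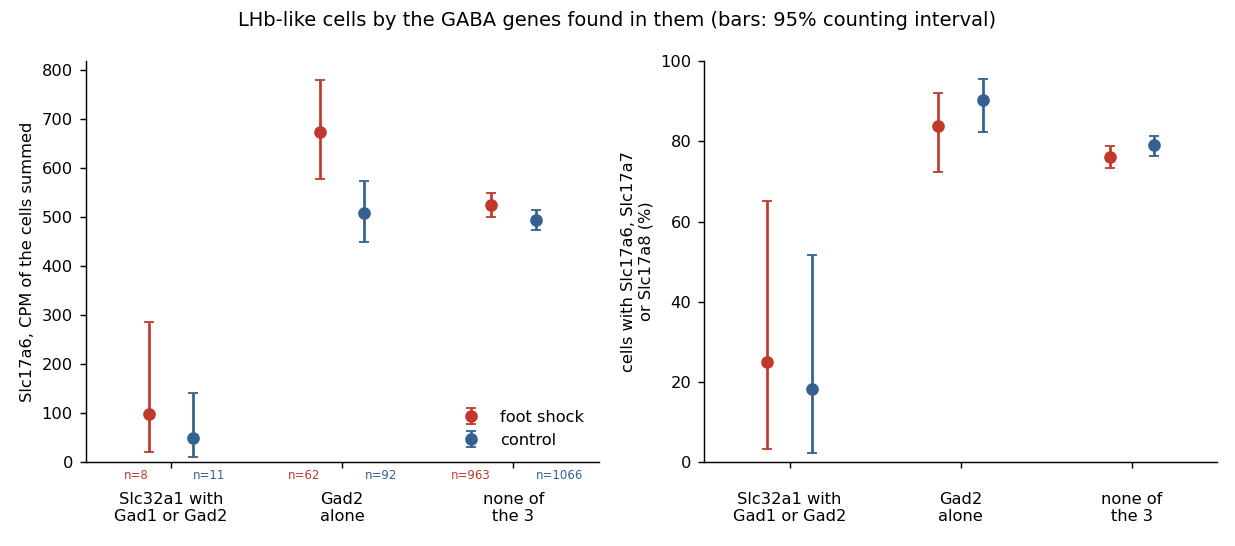
LHb-like cells by the GABA genes they carry: Slc17a6 level (CPM, left) and percent of cells that hold a vesicular glutamate gene (right), with exact 95% counting intervals and the number of cells under each point on the left. In the right panel cells with Gad2 alone stand at 83.9% in the foot shock and 90.2% in the control library, and cells with Slc32a1 at 25.0% and 18.2%. The shares are not thinned, and depth differs between the kinds of cell.

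Over all LHb-like cells, and without thinning, GAD genes were found at close shares in cells with and without Slc17a6. At 1000 UMIs per cell, 1.45% of foot shock (0.814 to 2.38) and 1.28% of control LHb-like cells held Slc17a6 with Gad1 or Gad2, and without thinning 55 cells (5.31%) and 85 cells (7.26%) did. The thinned shares were 0.349% in the foot shock and 0.234% in the control library at a clustering resolution of 2.0, and 0.115% and 0.0710% with 2 Pou4f1 UMIs per 10000. Without thinning, Gad1 or Gad2 was found in 7.06% of foot shock cells with Slc17a6 and 7.00% of those without it, and in 9.22% and 8.03% in the control library. These shares pool the 2 kinds of cell above, which differed in Slc17a6. It was found in 52 of 62 foot shock and 83 of 92 control cells with Gad2 alone. Cells with Slc32a1 held it in 2 of 8 and 2 of 11, and cells with none of the 3 genes in 724 of 963 and 837 of 1066. Depth was not made equal in these counts. In the medial habenula any of the 3 GABA genes was found in 4 foot shock and 10 control cells.

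Between foot shock and control the levels of the glutamate carriers were close in the medial habenula. The foot shock level of Slc17a6 in MHb-like cells was 1.11 times the control level (1.03 to 1.21), and that of Slc17a7 was 1.02 times (0.973 to 1.08). Slc17a8 stood at 1.17 times (0.536 to 2.62). None of these 3 passed 1.5-fold, against 7.66% of 11756 genes measured in this class. Gad1, Gad2 and Slc32a1 held under 20 UMIs there and were not compared.

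In LHb-like cells 2 of the 6 members were over 1.5-fold higher in foot shock and 0 were lower, where 8.56% of 12031 genes passed in either direction. Both were low genes. Slc17a7 stood at 1.53 times (1.04 to 2.27) on 59 foot shock and 52 control UMIs, below the free RNA level in both libraries, and at 1.00 times with 1000 variable genes in the clustering. Slc17a8 stood at 1.53 times (0.961 to 2.45). Slc17a6 stood at 1.08 times (1.02 to 1.15), Gad1 at 1.07 times (0.638 to 1.77), Gad2 at 0.869 times (0.723 to 1.04) and Slc32a1 at 0.736 times (0.390 to 1.35). Without LHb 2 and LHb 13, Gad1 stood at 7.44 times (2.15 to 39.6) and Gad2 at 1.09 times (0.886 to 1.34). This Gad1 ratio rests on few cells. A single foot shock LHb-like cell held 14 Gad1 UMIs, more than the 13 of all foot shock LHb 2 cells, and the interval does not cover spread between cells. In thalamus-like cells Slc17a6 stood at 1.18 times (1.04 to 1.34) and Slc17a7 at 1.78 times (0.933 to 3.29), so 1 of 2 measured members passed, where 21.9% of 7283 genes did. The median log2 ratio over all genes was -0.04 in MHb-like, -0.05 in LHb-like and -0.05 in thalamus-like cells.

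By subcluster the Gad2 ratio pointed both ways. In LHb 1 the foot shock level was 2.08 times the control level (1.62 to 2.66), and in LHb 2 it was 0.401 times (0.240 to 0.643). In the cluster that holds most of these cells, whose leading genes include Rasgrf2 and Rph3a, Gad2 stood at 106 CPM in 413 foot shock cells and 108 CPM in 497 control cells, nearly level. Without the Slc32a1 cells LHb 1 held 245 CPM in the foot shock library and 135 CPM in the control library, a ratio of 1.82 (1.40 to 2.37). LHb 2 without them held 19.3 and 27.6 CPM, a ratio of 0.700 (0.282 to 1.59), an interval that holds 1. LHb 1 had 124 foot shock and 279 control cells, so the subclusters drew differently on the 2 libraries.

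**Figure D5:**
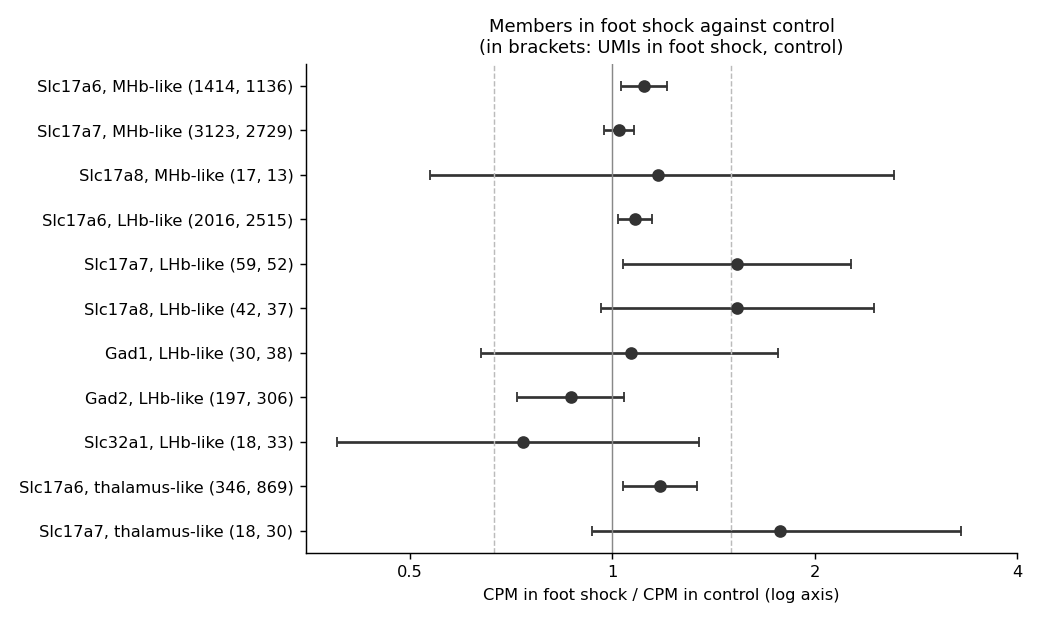
Ratio of foot shock over control levels (log axis) of the measured members in MHb-like, LHb-like and thalamus-like neurons, with exact 95% intervals from counting error; the solid line marks a ratio of 1 and the dashed lines 1.5-fold either way. Slc17a6 stands between 1.08 and 1.18 in the 3 classes, and Gad2 in LHb-like neurons at 0.869.

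Of 13 listed genes that supply and recycle glutamate 12 were measured in each library. In the foot shock library 1 was over 1.5-fold higher, 5 were over 1.5-fold lower and 6 were neither in MHb-like over LHb-like cells (median log2 ratio -0.49), where 34.2% of all measured genes passed. In the control library 0 were higher, 7 lower and 5 neither (median -0.68), where 35.9% of all measured genes passed. Slc1a2, a glutamate uptake carrier that is mainly glial, stood at 0.121 times the LHb-like level in the foot shock library and 0.123 times in the control library. Slc1a1, a neuronal uptake carrier, stood at 0.321 and 0.217 times, and Gls2, a glutaminase, at 0.405 and 0.138 times. Slc38a2, a glutamine carrier, was the highest of the list, at 1.54 times in the foot shock library and 1.36 times in the control library.

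Of 9 listed genes of GABA breakdown, uptake and other synthesis 6 were measured. In MHb-like over LHb-like cells 0 were higher, while 6 were lower in the foot shock library and 5 in the control library (median log2 ratio -1.17 and -1.01), beside the same 34.2% and 35.9% of all genes. Abat, which breaks GABA down, stood at 0.399 times the LHb-like level in foot shock MHb-like cells and 0.378 times in control MHb-like cells, and Maob, a monoamine oxidase, at 0.338 and 0.582 times. The genes of these lists could enter the clustering, so this split is in part the split the clusters were made on.

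The list of other transmitters and vesicular carriers moved both ways between MHb-like and LHb-like cells. Of its 17 genes 7 were measured in the foot shock library, 4 higher and 3 lower (median log2 ratio 2.06), and 8 in the control library, 4 higher and 4 lower (median -0.90). All of those measured passed, against 34.2% of all genes in the foot shock library and 35.9% in the control library. Slc18a3, the vesicular acetylcholine carrier, stood at 56.1 times the LHb-like level in foot shock and 48.4 times in control MHb-like cells. Slc5a7, the choline carrier, stood at 28.2 and 40.4 times, but this gene and Chat, which makes acetylcholine, were markers used to name the class. Th, of dopamine synthesis, stood at 4.17 and 6.54 times, while Ddc, which makes dopamine and serotonin from their precursors, stood at 0.0964 and 0.0668 times. The 7 subunits and partners of the vesicle proton pump, which powers every vesicular carrier, were level: 0 passed in either library, with ratios between 0.762 and 1.19 in the foot shock library and between 0.716 and 1.05 in the control library.

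Few genes of these lists passed 1.5-fold between foot shock and control. Over all measured genes 7.66% passed in MHb-like, 8.56% in LHb-like and 21.9% in thalamus-like cells. In MHb-like cells 2 of 12 glutamate supply genes were over 1.5-fold higher in foot shock, Gls2 at 2.51 times (1.18 to 5.79) and Slc1a3 at 2.35 times (1.00 to 6.14), both under 5.0 CPM. Slc6a9, a glycine carrier, stood at 1.94 times (1.17 to 3.29), and 0 of the 6 GABA handling genes and 0 of the 7 pump genes passed. In LHb-like cells Maob stood at 1.55 times (1.29 to 1.87) and Slc6a3, the dopamine carrier, at 0.506 times (0.237 to 1.01). There 0 of 12 glutamate supply and 0 of 7 pump genes passed. In thalamus-like cells Abat stood at 0.597 times (0.376 to 0.916), and Aldh5a1 (0.659) and Slc6a9 (1.74) had intervals that held 1.

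Across 12 neuronal clusters the genes most like each member were ranked by Pearson r of log2(CPM + 10), with both libraries summed. Among the genes most like Slc17a6 were Prnp and Acvr1b (r = 0.98 each). Slc17a7 was most like Ano1, a chloride channel gene (0.97), Shank2 (0.97), Syt9 (0.97) and Chrna3, a nicotinic receptor subunit that was a marker of the class (0.97). Gad2 was most like Pvalb (0.96) and Pou3f2 (0.95). Of the Pvalb UMIs in LHb-like cells, 36 lay in 1 foot shock cell with Slc32a1 and 64 in 2 such control cells, and the cells with Gad2 alone held 0 in both libraries. Gad1, with 71 UMIs, was most like Ccnd1 (0.97), Slc32a1, with 51 UMIs, Gpr101 (0.98) and Penk (0.97), and Slc17a8, with 114 UMIs, Slc2a13 (0.93). Among the members, Gad1 and Slc32a1 had r = 0.91, Gad1 and Gad2 0.88 and Gad2 and Slc32a1 0.83, while Slc17a6 and Slc17a7 had r = -0.67 over the 12 clusters, where the MHb-like and LHb-like split enters.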

How the data were processed

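The authors deposited 1 table of raw UMI counts per gene and barcode for each library, made from a 10x 3′ version 2 kit, per the labels' protocols. Reads were processed with Cell Ranger 2 on mm10, per the submitters' processing notes. Positions come from GENCODE vM21, which holds 28339 of the 28692 gene IDs; which release the authors counted on is not given in the sources. The deposited count tables hold 737280 barcodes each, so cells were called here: at least 1000 UMIs, 500 to 6000 genes and at most 20% mitochondrial UMIs.

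Scrublet marked 69 foot shock (1.43%) and 249 control (4.85%) cells as doublets, which were removed. Cells of both libraries were clustered in scanpy 1.11.5 with leidenalg 0.10.2 (2000 variable genes without the 6 members, 30 components, 15 neighbours, resolution 1.0). A cluster was named from at least 3 held markers, and habenula names needed 1 Pou4f1 UMI per 10000. A further 81 foot shock and 13 control cells in mixed clusters were left out. These rebuilt names may differ from the study's own.

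UMIs were summed per class and library. Poisson, conditional binomial and Clopper-Pearson intervals were exact (scipy 1.17.1). The procedure was tested on simulated data. Named genes were all 6 members, the members of 4 pathway lists furthest in each direction (glutamate supply and recycling; GABA breakdown, uptake and other synthesis; other transmitters and vesicular carriers; vesicle proton pump), and the 5 genes most like each member. The members and lists were chosen with earlier results of these data known. A ratio counted as passed beyond 1.5-fold with at least 20 UMIs over both sides. The upper limit for a count of 0 is 3 UMIs. In total 19 alternatives were tried, of which 18 were planned and 1 was added; TMM factors came from edgeR 4.0.16. Median depth was 2698 UMIs per foot shock and 2416.5 per control cell. A few genes that the naming rule picks are not reported here.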

Additional observations from a re-analysis of the deposited data

Results flagged for a closer look

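Gad2 pointed in opposite directions in a pair of LHb-like subclusters. In LHb 1 the foot shock level was 2.08 times the control level (281 CPM in 124 foot shock cells, 135 CPM in 279 control cells). In LHb 2 the foot shock level was 0.401 times the control level (46.7 CPM in 122 foot shock cells, 116 CPM in 169 control cells). The difference between these ratios was not tested, since each group is 1 library, and the subclusters were picked out after their values were seen. Slc32a1 in LHb 2 gave 3 UMIs in the foot shock library and 29 in the control library. Without the cells that held Slc32a1, the Gad2 ratio in LHb 2 was 0.700 (0.282 to 1.59), an interval that holds 1. That of LHb 1 was then 1.82 (1.40 to 2.37). In the cluster that holds most of these cells Gad2 was nearly level, as given above.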

How the results depend on the processing

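No paired analysis was possible because each group has 1 library. Under 19 alternatives no ratio past 1.5-fold changed direction. Of 254 values that answer a comparison 215 were called the same and 39 moved, and of the other 1360 these were 1202 and 158. A value with a counting interval was called moved when it shifted by more than that interval. The numbers of genes past 1.5-fold, which are among the 254, have no such interval. The MHb-like over LHb-like ratio of Slc17a6 moved to 0.538 in the foot shock and 0.499 in the control library with a minimum of 500 UMIs, to 0.538 and 0.498 at resolution 2.0, and to 0.558 and 0.533 with 2 Pou4f1 UMIs per 10000. That of Slc17a7 moved to 21.9 and 24.2 with doublets kept, to 27.0 and 35.5 with 2 Pou4f1 UMIs per 10000, and in the control library to 39.1 with a minimum of 2000 UMIs and 38.5 with 1000 variable genes. Its foot shock over control ratio in LHb-like cells was 1.00 with 1000 variable genes. The share of MHb-like cells with Slc17a6 and Slc17a7 was 0.428% in the foot shock and 0.449% in the control library when 2 UMIs of each were required, 22.9% and 19.9% at 2000 UMIs per cell, and 41.2% and 43.9% without thinning. The share of LHb-like cells with Slc17a6 and a GAD gene was 0.349% and 0.234% at resolution 2.0, 0.115% and 0.0710% with 2 Pou4f1 UMIs, 0.0940% and 0.0404% with 2 UMIs of each, 3.11% and 3.17% at 2000 UMIs, and 5.31% and 7.26% without thinning. The number of genes past 1.5-fold depended on the minimum: with no minimum and with 100 UMIs it was 7948 and 2443 (4089 at 20) for MHb-like over LHb-like in the foot shock library, 8401 and 2753 (4369) in the control library, and for foot shock over control 4477 and 195 (901) in MHb-like, 4490 and 280 (1030) in LHb-like and 6396 and 117 (1592) in thalamus-like cells. Other scalings moved the median of all genes by under 0.05 log2. The causes were not tested. With LHb 2 and LHb 13 moved out of the LHb-like class, chosen after seeing the data, the Gad1 foot shock over control ratio was 7.44 (2.15 to 39.6) and that of Gad2 1.09. This Gad1 ratio rests on few cells, since 1 foot shock LHb-like cell alone held 14 Gad1 UMIs. Depth limits Slc32a1, Gad1 and Slc17a8, which rest on 51, 71 and 114 UMIs over all neurons.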

Other observations

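Some genes were found in a larger share of the 19 neurons with an Slc32a1 UMI than of the 5320 other neurons. Six3, a homeobox factor of forebrain development, was found in 42.1% of them and in 0.0376% of the other neurons, with 4 cells in each library. Gata3 was found in 31.6% against 0.0564%, in 1 foot shock and 5 control cells. Cplx3, a complexin that acts at vesicle fusion, was found in 26.3% against 0.0188%, in 3 foot shock and 2 control cells. Gfra2, a receptor for neurturin, was found in 57.9% against 6.33%, and Drd1, a dopamine receptor, in 26.3% against 1.39%. These genes were ranked on the same cells, so the shares describe them and test nothing.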
